A study of Homo sapiens with 12 samples.

Results

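The set described here is 53 human genes whose products work in the nucleolus on the assembly of ribosomes, listed by name with no threshold on a measured value. The list was chosen with earlier results of these data known. Of the 53 genes, 46 could be followed, among 19775 genes in all, each through its brightest probe set (by the mean over all arrays). By step of the pathway they were 16 factors of the early processome, 2 of the box C/D particles (of 3 listed), 3 of the box H/ACA particles (of 4), 13 of the large subunit or 60S (of 18), 6 of the small subunit or 40S, and 6 other nucleolar proteins. NOP56, DKC1, BOP1 and PPAN had only probe sets that also named other genes, and these 4 were not analysed here, nor were GNL3, DDX18 and EBNA1BP2, for which the annotation used here gave no probe set. All 46 were included whatever their level, and each reached a mean of at least 4.60 on the log2 scale in its highest group, above the median of 1.99 over all values.

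Total RNA of 3 human mantle cell lymphoma lines, Mino, SP-49 and Rec-1, was hybridised to 12 Affymetrix arrays. Mantle cell lymphoma is a cancer of B cells. Cultures received either 0.1% DMSO (Mock) or compound E at 1 µM for 24 h; compound E is a gamma-secretase inhibitor (GSI) and stops the cleavage that switches Notch receptors on. Each of the 6 groups had 2 arrays, and Mino was kept in 15% serum against 10% for Rec-1 and SP-49. Each line is a single culture-adapted tumour, so a difference between lines cannot be told apart from anything else the lines differ in, which for Mino against either other line includes the serum level. The questions were how these genes respond to the inhibitor in each line and at which level each line held them without it. Whether the 2 arrays of a group came from separate cultures is not given in the sources used here, so the p-values reflect only how far these arrays spread, which may be technical.

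Ribosome assembly starts in the nucleolus on a long precursor RNA made by RNA polymerase I. The early processome, a large particle built around a small nucleolar RNA named U3, folds and cuts the part that becomes the small subunit. Box C/D particles guide methylation of the RNA and box H/ACA particles guide its conversion of uridine to pseudouridine. Separate sets of factors then mature the 60S and 40S subunits. The transcription factor MYC is known to drive many of these genes in B cells and elsewhere, and MYC is itself a known target of Notch in lymphoid cancers.

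The arrays of a group correlated with r from 0.984 to 0.995 over probe sets, and none were duplicates. The B-cell markers followed, 5 in number, had group means from 3.92 to 11.22, with MS4A1 (the B-cell surface protein CD20) the highest, and 17 markers of T, NK, myeloid, stromal, epithelial and red cells had group means from 1.25 to 4.80, the highest being CD3D in Rec-1. Of the mantle cell lymphoma markers, CD5 was at 2.40 to 2.74 in Rec-1 and SP-49 and up to 4.37 in Mino, while CCND1 (cyclin D1) was the highest. The second GSI array of Rec-1 and that of SP-49 had the narrowest spread of values over probe sets (SD 1.95 and 2.0, against 2.01 to 2.05 on the others).

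In Rec-1, the nucleolar factors fell as a block. By limma with Benjamini-Hochberg adjustment over all genes, 38 of 46 members fell past an adjusted p of 0.05 and 0 rose, where 3.62% of all genes fell and 2.15% rose, and the remaining 8 had negative changes as well. In RNA from whole cultures, a smaller share of cells with a transcript and less of it per cell cannot be told apart. The median change was -0.88 on the log2 scale (GSI minus Mock), beside 0.01 over all genes. Both GSI arrays lay below both Mock arrays for 45 of the 46 members, beside 22.3% of all genes, the exception being PINX1. The count of falls was lower without Mock replicate 1 of Rec-1. When the 4 Rec-1 arrays were fitted alone, 0 members passed, although 42 then had an unadjusted p under 0.05. The shares of all genes in that fit are not given here, so neither count can be set against them. With 1 of the 12 arrays left out in turn, 22 of the 38 falls held every time. Besides UTP15, FBL and NHP2, described with their steps, the calls lost at least once were those of HEATR1, WDR3, GTPBP4, NCL, WDR75, WDR36, RRP9, GNL2, NOC3L, LTV1, NOP14, IMP3 and NOP2. These 13 were lost in 1 to 3 fits, each without Mock replicate 1, Mock replicate 2 or GSI replicate 2 of Rec-1, with adjusted p of at most 0.139. MYC, on the same arrays, went from 8.32 and 8.38 (Mock) to 7.12 and 6.52 (GSI), a fall of 1.53 (95% interval -1.92 to -1.15).

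**Figure D1:**
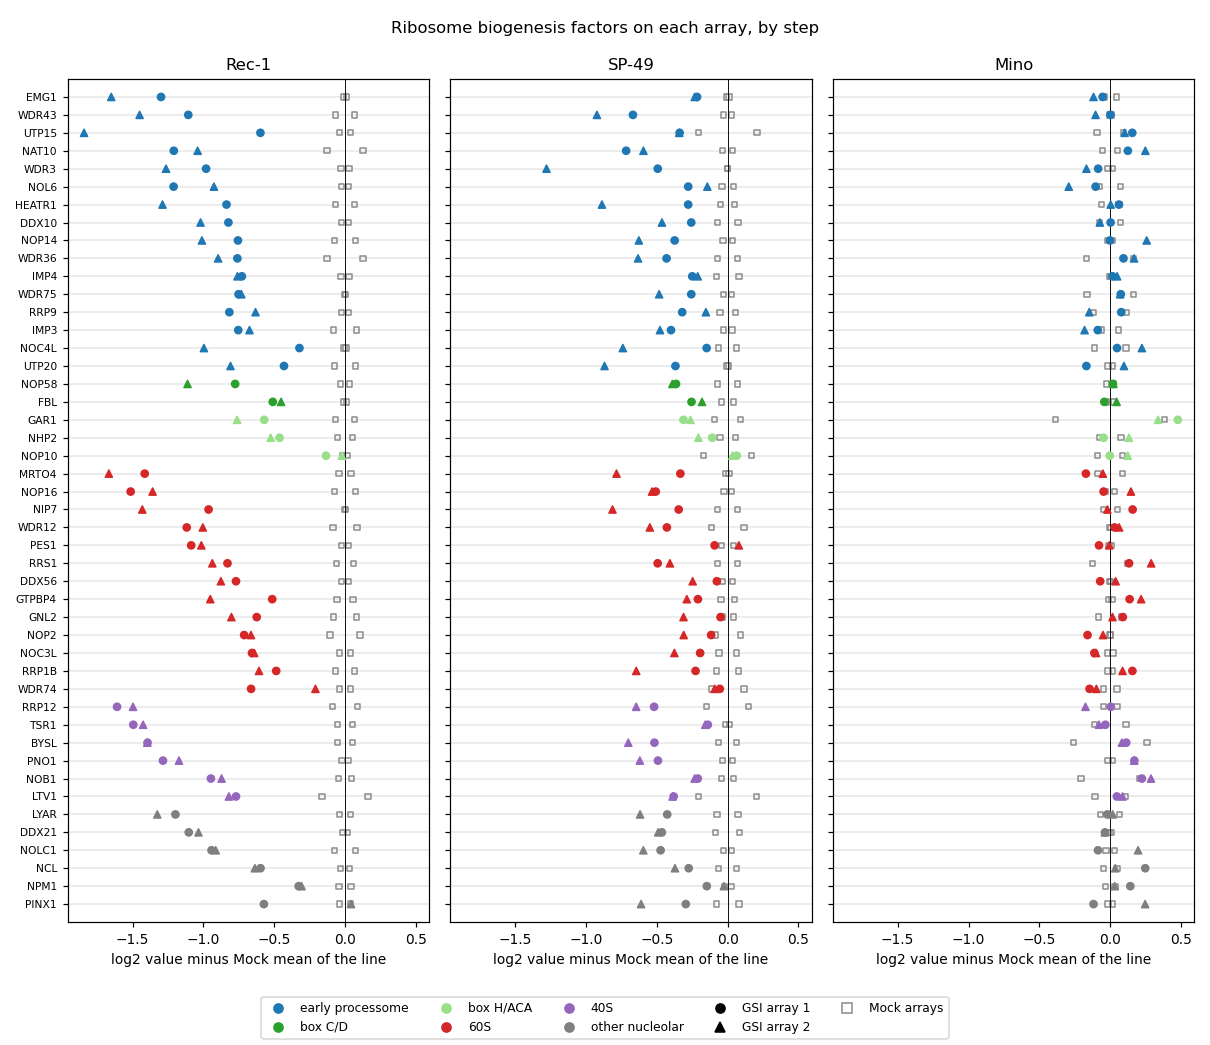
Log2 value on each array minus the Mock mean of the same line, for the 46 members ordered by step, with GSI arrays as filled circles and triangles and Mock arrays as open squares. In Rec-1 the GSI arrays of all members but PINX1 lie to the left of their Mock arrays, in SP-49 those of 43 members do, and in Mino 8 lie to the left and 9 to the right.

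Because the members moved together, the sequence around their starts was read from RefSeq (GRCh38.p14), as windows from 250 bases before to 50 after each annotated start. Of the 46 members, 40 had an entry; RRP12, RRP1B, RRS1, NOP58, NOLC1 and PINX1 did not. The E-box CACGTG, the sequence that MYC with its partner MAX is known to prefer, was present in the windows of 20 of the 40 (50%), against 10.9% of 15384 measured genes with windows of the same length and 33.3% (24 of 72) of other ribosome biogenesis factors. The members had 46 windows and all measured genes 21490, and GC content was similar (medians of 61.7% and 62.7%). CCGGAAG, a sequence bound by ETS-type factors, was present in 16 of 40 (40%, against 16.6% of all and 47.2% of the other factors), and the palindromic motif of the factor NRF1 in 2 (5%, against 2.04% and 8.33%). Both strands were searched, and 0 matches of different motifs overlapped.

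The E-box matches of the members were also placed otherwise than those of all measured genes. Positions were not computed for the other ribosome biogenesis factors, so whether the place is particular to the members is not known. Of 22 matches, 14 (63.6%) began in the 50 bases from the start onward, beside 204 of 1999 (10.2%) over all measured genes. A site seen from several annotated starts was counted for each. The stretches shown are 30 bases long, on the strand of the gene, with the E-box in capitals, for up to 2 members per step with the largest change in Rec-1 among the 18 whose E-box lay within 50 bases of a start with 12 bases on each side inside the window. They let the members be compared letter by letter around the shared word.
WDR43 (chr2:28894658-28894687, plus strand, E-box 3 bases after the start): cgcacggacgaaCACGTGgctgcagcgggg
NAT10 (chr11:34105602-34105631, plus strand, E-box 15 bases before the start): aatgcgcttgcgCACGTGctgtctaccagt
FBL (chr19:39846356-39846385, minus strand, E-box 6 bases after the start): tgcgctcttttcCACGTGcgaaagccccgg
GAR1 (chr4:109815781-109815810, plus strand, E-box 31 bases after the start): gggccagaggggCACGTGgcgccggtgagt
NOP10 (chr15:34343130-34343159, minus strand, E-box 11 bases before the start): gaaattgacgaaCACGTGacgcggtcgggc
MRTO4 (chr1:19251807-19251836, plus strand, E-box 14 bases after the start): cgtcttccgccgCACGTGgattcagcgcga
PES1 (chr22:30591880-30591909, minus strand, E-box 13 bases after the start): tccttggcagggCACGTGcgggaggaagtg
BYSL (chr6:41921515-41921544, plus strand, E-box 28 bases after the start): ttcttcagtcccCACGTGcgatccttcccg
PNO1 (chr2:68157885-68157914, plus strand, E-box 9 bases after the start): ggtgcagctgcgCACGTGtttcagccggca
DDX21 (chr10:68956604-68956633, plus strand, E-box 31 bases before the start): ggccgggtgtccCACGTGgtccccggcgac

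Changes were of like size with and without the E-box. The 20 members with it had a median change of -0.84 in Rec-1 and the 20 without it -0.87, with 17 falls past the threshold in each. In SP-49 the medians were -0.34 and -0.35. EMG1 and TSR1 had the largest changes among members without the E-box, and the 70 bases before their starts are shown with CCGGAAG, on either strand, in capitals, which occurs 2 times in each.
EMG1 (chr12:6970843-6970912, plus strand): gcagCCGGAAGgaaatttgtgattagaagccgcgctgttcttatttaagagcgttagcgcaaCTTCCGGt
TSR1 (chr17:2336458-2336527, minus strand): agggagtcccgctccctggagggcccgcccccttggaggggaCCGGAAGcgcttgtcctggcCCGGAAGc
A match is a description of these letters only, and binding was not measured.

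**Figure D2:**
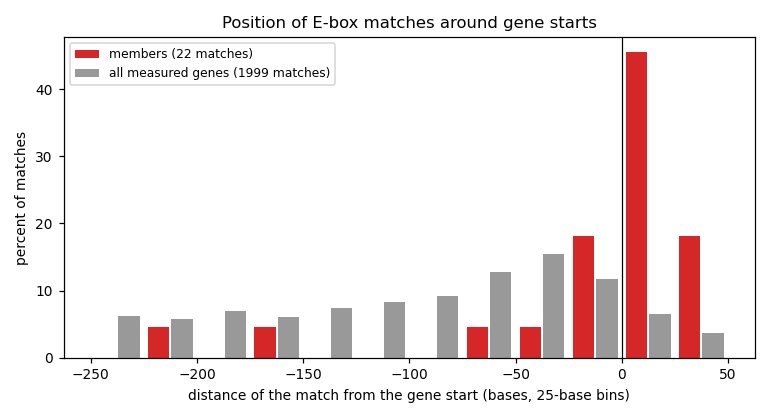
Percent of E-box (CACGTG) matches in each 25-base bin of distance from the annotated start, for the members (22 matches, red) and for all measured genes (1999 matches, grey). The members' matches pile up just after the start, where 14 of 22 lie. Those of all genes are most frequent shortly before it (12.8%, 15.5% and 11.8% in the bins from -75, -50 and -25). They are scarcer after it (6.5% and 3.8% in the bins from 0 and 25). The window ends 50 bases after the start, so matches reaching past that end are missing from the last bin of both sets.

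The early processome fell nearly whole in Rec-1, with 14 of 16 members past the threshold and a median of -0.90. EMG1, a methyltransferase of the small subunit RNA, was at 7.14 and 7.12 on the Mock arrays and 5.83 and 5.48 on the GSI arrays, a fall of 1.47 (95% interval -1.77 to -1.18; adjusted p = 0.000231). WDR43, a component of the first complex to bind the precursor, went from 6.41 and 6.28 to 5.24 and 4.89, a fall of 1.28 (adjusted p = 0.000754), and each GSI array was over 1 log2 unit below both Mock arrays. NAT10, which acetylates the small subunit RNA, and WDR3, another scaffold protein of the particle, fell by 1.12 each. NOL6, HEATR1, DDX10, NOP14 and WDR36 fell by 1.07, 1.06, 0.92, 0.88 and 0.83, and IMP4, WDR75, RRP9 (a protein of the U3 particle) and IMP3 by 0.74, 0.74, 0.72 and 0.71.

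UTP15, a partner of WDR43, passed with a change of -1.22, but its GSI arrays were far apart at 4.28 and 3.03, against 4.91 and 4.84 with Mock, and leaving out 1 array at a time ended its call in 11 of 12 fits. UTP20, a very large scaffold protein, had the smallest change in this step, from 5.11 and 5.26 to 4.75 and 4.37, and with -0.62 did not pass (adjusted p = 0.0787). NOC4L, which pairs with NOP14, was the other that did not pass (-0.66, adjusted p = 0.134).

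The guide-RNA particles had the smallest median changes, -0.71 for box C/D and -0.49 for box H/ACA. Of the box C/D core, NOP58 went from 8.65 and 8.58 to 7.84 and 7.50, a fall of 0.94 (adjusted p = 0.00247). FBL, fibrillarin, the methyltransferase of that particle, fell by 0.48, from 9.60 and 9.58 to 9.08 and 9.14 (adjusted p = 0.0328), and its arrays were close within each group, yet leaving out 1 array ended its call in 6 of 12 fits. Of the box H/ACA core, whose enzyme DKC1 could not be followed, 1 of 3 passed. NHP2 was at 9.75 and 9.85 with Mock and 9.34 and 9.28 with GSI, a fall of 0.49 (adjusted p = 0.0449), a call lost in each of those 12 fits. GAR1 went from 8.14 and 8.0 to 7.50 and 7.31 (-0.67, adjusted p = 0.0948). NOP10, the smallest of these proteins, was at 9.01 and 8.98 against 8.86 and 8.97, and its change of -0.08 had a 95% interval of -0.39 to 0.23, which leaves out a fall of the size seen in NOP58.

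Among the 60S factors, 11 of 13 fell in Rec-1, with a median of -0.82. MRTO4, which holds the place of the stalk on the young subunit, went from 6.68 and 6.76 to 5.30 and 5.05, 2.91-fold lower (adjusted p = 0.00051). NOP16 went from 8.95 and 8.81 to 7.37 and 7.52, 2.71-fold lower (adjusted p = 0.000206). For both genes every GSI array was more than 1 log2 unit under every Mock array. PES1 and WDR12, which form the PeBoW complex with BOP1, fell by 1.05 and 1.06, and NIP7, an early-acting 60S factor, by 1.20. The GTP-binding proteins GTPBP4 and GNL2 fell by 0.73 and 0.71, the RNA helicase DDX56 by 0.82, RRS1, which helps to bring in the small ribosomal RNA named 5S, by 0.88, the methyltransferase NOP2 by 0.69 and NOC3L by 0.65. WDR74 had the smallest change, from 7.17 and 7.10 to 6.47 and 6.93 (-0.44, adjusted p = 0.147), with its GSI arrays apart, although a dimmer probe set of it gave -1.13 (adjusted p = 0.0048 when every probe set was tested). RRP1B had a change of -0.55 (adjusted p = 0.0602).

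The 40S factors had the lowest median, -1.31, and all 6 fell past the threshold. RRP12, which is needed for nuclear export of young subunits, went from 5.41 and 5.23 to 3.71 and 3.83, a fall of 1.55 (95% interval -1.87 to -1.24), 2.93-fold lower, by 1 probe set (its other 4 were dim, with changes from -0.25 to 0.21). TSR1, a GTPase-like placeholder on the young subunit, went from 7.50 and 7.39 to 5.95 and 6.02, a fall of 1.46, with the smallest adjusted p of the set (0.000159). Its other probe sets, with means of 5.49, 4.88 and 2.97, gave -1.14, -0.17 and -0.65. When every probe set was tested by limma, their adjusted p was 0.00197, 0.749 and 0.132. BYSL fell by 1.39 and PNO1, which binds the end of the immature RNA, by 1.23, from 7.78 and 7.74 to 6.47 and 6.59. A second PNO1 probe set, with a mean of 6.46, gave -0.72 (adjusted p = 0.0574 when every probe set was tested). The nuclease NOB1 went from 7.59 and 7.51 to 6.60 and 6.68, a fall of 0.91. LTV1, an export and assembly factor, fell least, by 0.79, from 7.21 and 7.53 to 6.60 and 6.55. The differences between steps were not tested.

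Of the 6 other nucleolar proteins, 4 fell in Rec-1, with a median of -0.77. LYAR, which promotes processing of the precursor, went from 7.69 and 7.78 to 6.54 and 6.41, a fall of 1.26 (adjusted p = 0.000457). The helicase DDX21, linked to RNA polymerase I and small nucleolar RNAs, went from 9.96 and 9.93 to 8.84 and 8.91, a fall of 1.07, and NOLC1, a chaperone of the guide particles, fell by 0.93. The abundant proteins nucleolin (NCL) and nucleophosmin (NPM1) had smaller changes. NCL fell by 0.62, and NPM1 had a change of -0.32 (adjusted p = 0.161), although its other 2 probe sets gave -0.64 and -0.68, with adjusted p of 0.0156 and 0.00813 when every probe set was tested. PINX1, known as an inhibitor of telomerase, was at 4.03 and 4.11 with Mock and 3.50 and 4.11 with GSI, so that its groups overlapped (-0.27, adjusted p = 0.537).

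The falls in Rec-1 went with more 3' excess of the GAPDH control (its 3' minus its 5' probe set, which tracks RNA quality) on the GSI arrays (0.59 and 0.49) than on the Mock arrays (0.41 and 0.37), and its part in them was not tested. The same measure was also higher with GSI in Mino (0.31 and 0.39 against 0.26 and 0.25). That of the ACTB control overlapped in Rec-1 (2.29 and 1.92 with GSI against 2.0 and 1.83) and was higher with GSI in Mino (2.0 and 1.94 against 1.73 and 1.79). Against the Mock mean, the median over members was -0.77 on GSI replicate 1 and -0.93 on replicate 2, the array with the narrowest spread of values. Without that array and its SP-49 counterpart, the median change of the members in Rec-1 was -0.77.

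In SP-49 the same genes leaned the same way, at smaller sizes. No member passed by limma over all genes (0 of 46, where 0.172% of all genes fell). Of the members, 27 had an unadjusted p under 0.05, all with negative changes, beside 1754 of 19775 genes, 1163 of them with negative changes. With an intensity trend and robust prior 10 members fell, and the share of all genes under that setting is not given here. The median change was -0.38, beside -0.02 over all genes. Both GSI arrays nevertheless lay below both Mock arrays for 43 of 46 members, beside 24.4% of all genes, and NOP10 was the 1 member with a positive change (0.05). The 3' excess of GAPDH overlapped here (0.35 and 0.44 against 0.35 and 0.34). The median against the Mock mean was -0.30 on GSI replicate 1 and -0.44 on replicate 2, again the array with the narrower spread of values, whose part in the change was not tested. MYC fell by 1.55, from 7.33 and 7.31 to 5.79 and 5.75. Its call past the threshold did not hold in all 12 fits with 1 array left out.

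By step, the SP-49 medians were -0.44 for the early processome, -0.30 for box C/D, -0.16 for box H/ACA, -0.28 for 60S, -0.47 for 40S and -0.46 for the other nucleolar proteins. WDR43 was at 6.04 and 6.10 with Mock and 5.40 and 5.15 with GSI, a change of -0.80 (95% interval -1.12 to -0.47) with the smallest adjusted p among members (0.0714). WDR3 had the largest change, -0.89, from 6.34 and 6.34 to 5.84 and 5.06 (adjusted p = 0.157), and its GSI arrays were apart by more than the change of the first. RRP12 (5.06 and 5.36 to 4.69 and 4.56), NOP16 (7.65 and 7.60 to 7.12 and 7.10) and LYAR (6.81 and 6.96 to 6.45 and 6.26) had changes of -0.58, -0.52 and -0.52. In each of these 5 genes the GSI arrays were the lower ones and did not overlap the Mock arrays.

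The change was lower in Rec-1 than in SP-49 for 45 of 46 members, beside 47.2% of all genes. The median difference was -0.48, beside 0.02 over all genes. Of the 46 members, 3 passed the test of the difference itself, where 0.172% of all genes were lower by that test. TSR1 was at 6.15 and 6.17 with Mock and 6.02 and 6.0 with GSI in SP-49, so that its change there of -0.15 was smaller than in Rec-1 by 1.31 (95% interval of the difference -1.69 to -0.93; adjusted p = 0.0117). EMG1 went from 6.55 and 6.53 to 6.32 and 6.30 in SP-49, and its change differed by -1.25 (adjusted p = 0.0197). PES1 was at 6.03 and 6.11 with Mock and 5.98 and 6.15 with GSI in SP-49, with overlapping groups, and differed by -1.04 (adjusted p = 0.0253). Each call ended when SP-49 Mock replicate 1, SP-49 Mock replicate 2 or SP-49 GSI replicate 2 was left out, reaching 0.0797 for TSR1, 0.113 for EMG1 and 0.15 for PES1. Those of EMG1 and PES1 also ended without either Mock array of Rec-1, and that of EMG1 without SP-49 GSI replicate 1. With the probe sets of each gene averaged, the differences of TSR1 and PES1 shrank to -0.62 and -0.53 and did not pass (adjusted p = 0.134 and 0.117). The second probe set of PES1 was dim, with a mean of 1.59 over all arrays, and those of TSR1 had means from 2.97 to 6.58. MYC itself changed by nearly the same amount in both lines, with a difference of 0.02 (95% interval -0.53 to 0.56).

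Across the 46 members, the changes in Rec-1 and SP-49 correlated with r = 0.489 (Spearman 0.494), beside 0.278 over all genes. This describes genes on the same 8 arrays, which are not independent of each other. UTP20, the processome factor with the smallest change in Rec-1, had the same change in SP-49 (-0.62 in each), from 5.35 and 5.34 to 4.98 and 4.48.

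In Mino the members stayed near their Mock levels. By limma 0 of 46 passed, as did 0% of all genes, and 0 had an unadjusted p under 0.05, where 969 of 19775 genes did. The median was 0.05, 18 changes were negative and 28 positive, and both GSI arrays lay below both Mock arrays for 8 members and above them for 9, beside 17% and 16.2% of all genes. The largest change, 0.41, was in GAR1, and rested on a Mock array that stood apart (7.70 and 6.93 against 7.79 and 7.65 with GSI). NOB1 had 0.26, with Mock arrays at 7.64 and 8.05 and GSI arrays at 8.07 and 8.14. RRP12 was at 5.40 and 5.30 with Mock and 5.35 and 5.17 with GSI, TSR1 at 7.09 and 6.87 against 6.95 and 6.90, and WDR43 at 6.57 and 6.56 against 6.56 and 6.46. MYC was at 9.92 and 9.72 with Mock and 9.86 and 10.04 with GSI.

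**Figure D3:**
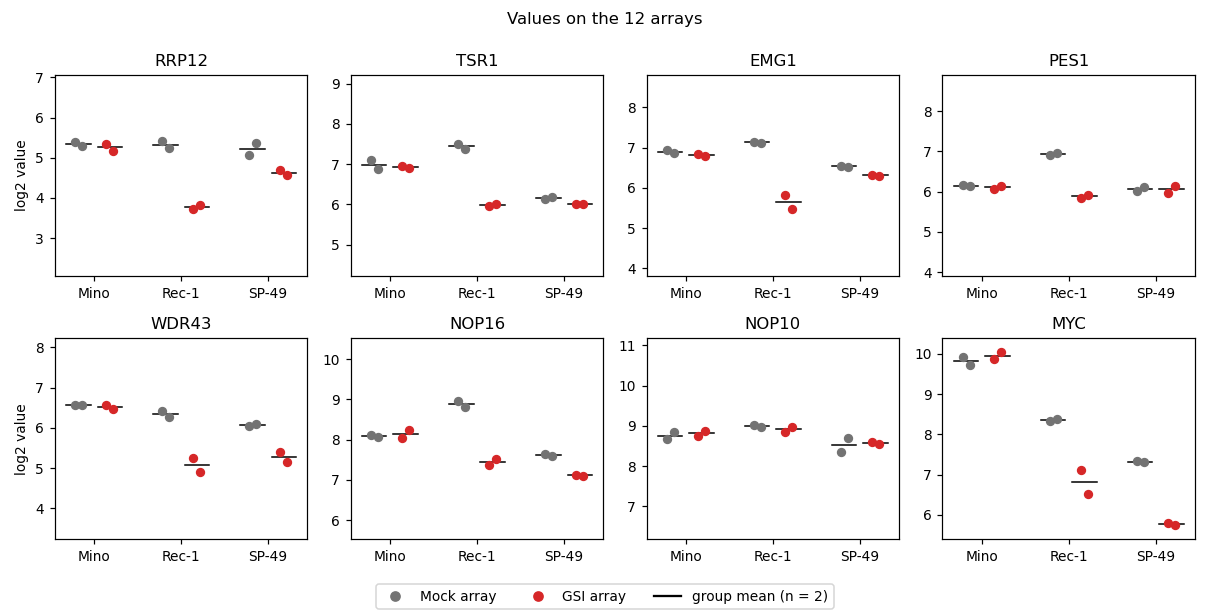
Log2 values on each of the 12 arrays for RRP12, TSR1, EMG1, PES1, WDR43, NOP16, NOP10 and MYC (grey, Mock; red, GSI; bar, mean of 2 arrays), each panel spanning the same height. RRP12 and NOP16 fall steeply in Rec-1 and less in SP-49, TSR1, EMG1 and PES1 fall in Rec-1 with changes of -0.22 to -0.01 in SP-49, NOP10 stays level, and MYC falls alike in both lines.

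The change in Rec-1 was lower than that in Mino for 46 of 46 members, beside 48.6% of all genes. Of the members, 22 passed the test of the difference, where 0.87% of all genes were lower by that test. PNO1 (difference -1.40, adjusted p = 0.00429), NOP16 (-1.49, adjusted p = 0.00439), TSR1 (-1.40, adjusted p = 0.00548), EMG1 (-1.39, adjusted p = 0.00894) and RRP12 (-1.47, adjusted p = 0.00894) led, and these 5 calls held without any 1 array. PNO1 in Mino was at 7.50 and 7.47 with Mock and 7.66 and 7.66 with GSI. The count itself depended on single arrays and was 5 to 11 without any 1 array of Mino or any 1 Mock array of Rec-1. For SP-49 against Mino, 0 members passed by limma (0.0455% of all genes did). An unadjusted p under 0.05 was found for 21 members, beside 1417 of 19775 genes. Over the average of the 3 lines 27 members fell, where 1.39% of all genes fell, and the count was 12 to 17 without any 1 of 8 arrays. These were the SP-49 Mock arrays, SP-49 GSI replicate 2, the Rec-1 Mock arrays, the Mino GSI arrays and Mino Mock replicate 2. The changes within a line come from separate arrays, but their p-values share 1 estimate of the spread per gene over all 12 arrays. They are therefore not independent between lines. The differences between lines also reuse the same Rec-1 or Mino arrays.

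Without inhibitor, the median member was lower in SP-49 than in either other line. Against Mino, 19 of 46 were lower and 2 higher in SP-49 (11.8% and 13.9% of all genes), with a median difference of -0.36. Against SP-49, 25 were higher and 1 lower in Rec-1 (13.1% and 15.8% of all genes), with a median of 0.47. Rec-1 and Mino differed in both directions, with 11 members higher and 7 lower in Rec-1 (12.8% and 13.3% of all genes) and a median of 0.12. The 7 lower were 15.2% of the members, near the share of all genes. MYC followed another order, highest in Mino (9.82 ± 0.14, SD, n = 2), then Rec-1 (8.35 ± 0.04) and SP-49 (7.32 ± 0.01). These comparisons share Mock arrays, so their counts are not independent. Without any 1 array, 14 of the 21 calls of SP-49 against Mino held, 18 of the 26 of Rec-1 against SP-49 and 10 of the 18 of Rec-1 against Mino.

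DDX10, a helicase of the early processome, differed most. It was at 7.84 and 7.89 in Rec-1, 7.25 and 7.40 in Mino and 5.91 and 6.05 in SP-49, 3.7-fold higher in Rec-1 than in SP-49 (adjusted p = 8.86e-07) and 2.55-fold lower in SP-49 than in Mino. LTV1 was highest in Rec-1 (7.21 and 7.53), 2.8-fold above SP-49 (5.67 and 6.08) and 2.29-fold above Mino (6.06 and 6.28), and SP-49 and Mino did not differ past the threshold (adjusted p = 0.25). TSR1 was 2.44-fold higher in Rec-1 than in SP-49 (adjusted p = 9.34e-06).

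IMP3, a protein of the U3 particle, was highest in Mino, at 6.0 and 5.87, against 4.68 and 4.52 in Rec-1 and 4.73 and 4.67 in SP-49, 2.53-fold and 2.36-fold lower. WDR75 was also highest in Mino (6.79 and 7.12), then SP-49 (6.52 and 6.46) and Rec-1 (5.99 and 6.0), with each neighbouring pair past the threshold (adjusted p = 0.0282 and 0.019). Leaving out Mino Mock replicate 2 or either SP-49 Mock array ended the first of these calls (adjusted p up to 0.225), and leaving out any 1 Mock array of Rec-1 or SP-49 ended the second (up to 0.106). LYAR fell in the order Mino (8.20 and 8.34), Rec-1 (7.69 and 7.78) and SP-49 (6.81 and 6.96), and its level in SP-49 was 2.62-fold below Mino. Its difference between Rec-1 and Mino did not pass without Mino Mock replicate 2 or Rec-1 Mock replicate 1 (adjusted p up to 0.0648). The 3 members of the box H/ACA particle were higher in Rec-1 than in SP-49, by 0.78 (NHP2), 0.69 (GAR1) and 0.47 (NOP10). The call of NHP2 held without any 1 array, while that of GAR1 ended without any 1 Mock array of either line (adjusted p up to 0.159) and that of NOP10 without either Rec-1 Mock array or SP-49 Mock replicate 1 (up to 0.257).

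**Figure D4:**
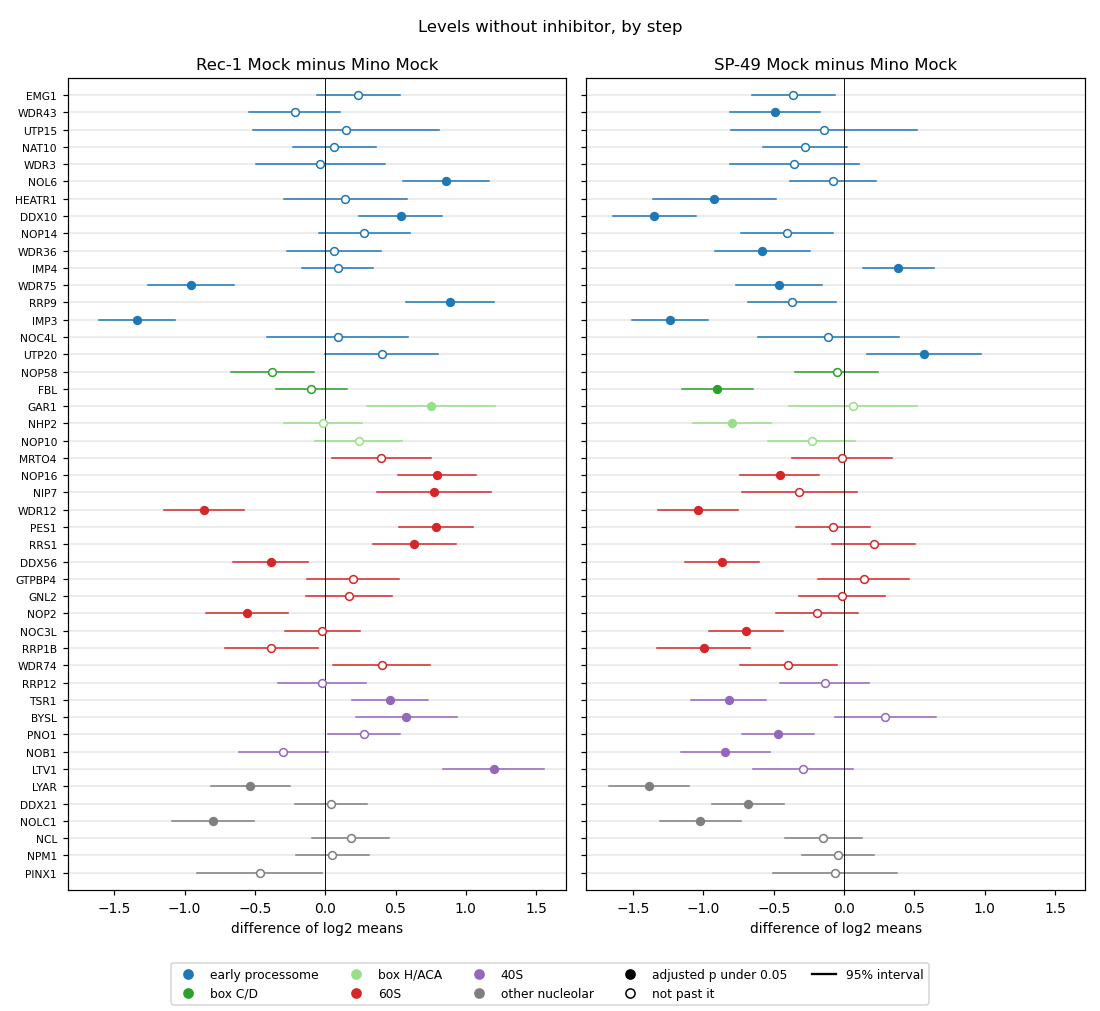
Difference of the mean log2 level on Mock arrays from that in Mino, for Rec-1 (left) and SP-49 (right), with 95% intervals of limma for single genes; filled points passed an adjusted p of 0.05. In SP-49 19 filled points lie below 0 and 2 above, and in Rec-1 7 lie below and 11 above.

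A list of 88 other ribosome biogenesis factors, 85 of them measured, was drawn up by role. In Rec-1, 40 of 85 fell and 0 rose (3.62% of all genes fell), with a median of -0.57. Leaving out 1 Rec-1 array lowered the number to 13 (Mock replicate 2), 18 (Mock replicate 1) or 21 (GSI replicate 2). By step, 18 of 31 processome factors, 15 of 38 of the 60S, 4 of 9 of the 40S and 3 of 7 assembly factors of the guide particles fell. DHX37, a helicase that releases U3, the 60S factor RRP15 and the processome protein WDR46 had the largest changes, with falls of 1.49, 1.26 and 1.16. DDX54 had the 1 positive change (0.03, adjusted p = 0.955). In SP-49, 0 of 85 passed by limma, 29 had an unadjusted p under 0.05 (1754 of 19775 genes did), and the median was -0.24. In Mino 0 passed, 2 had an unadjusted p under 0.05 (969 of 19775 genes did), and the median was 0.07.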

How the data were processed

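The authors deposited 1 table of log2 values for 54675 probe sets on 12 arrays. The submitters' processing notes name RMA and limma, without versions, and base 2 was inferred from the values (0.58 to 12.78). Symbols came from the platform annotation, updated through their gene numbers where possible (41043 of the 41097 probe sets that name 1 gene); 1801 name several and 11777 none. A gene was represented by its probe set with the highest mean. No gene was filtered out. limma 3.58.1 in R 4.3.3 was fitted to 6 group means over all 12 arrays (6 residual and 5.22 prior degrees of freedom), with two-sided p-values adjusted by Benjamini-Hochberg over 19775 genes within each contrast, and was tested on simulated data. Intervals of 95% are for single genes. The number of arrays, 2 a group, limits the precision (median standard error of a change 0.164).

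Alternatives covered the choice of probe set, dim genes, normalization, the prior, the arrays fitted, a fold minimum, array weights, a replicate block and arrays left out. Members, lists, steps and alternatives were chosen with earlier results of these data known. Values on every array are given for members fixed by rule. These were RRP12, TSR1, NOP16, LYAR and WDR43, the largest 2 and the smallest change per step in Rec-1, the largest 2 in SP-49 and Mino, members whose changes differed between lines (at most 5 a pair), and the 3 largest Mock differences a pair. UTP15 and the E-box positions were singled out after their values were seen.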

Additional observations from a re-analysis of the deposited data

Results flagged for a closer look

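The changes of 3 members differed between Rec-1 and SP-49 by limma's test of the difference, and those of 22 differed between Rec-1 and Mino, of which the 5 with the smallest p are given. For Rec-1 minus SP-49 the differences of the log2 changes were -1.31 in TSR1, -1.25 in EMG1 and -1.04 in PES1. For Rec-1 minus Mino they were -1.40 in PNO1, -1.49 in NOP16, -1.40 in TSR1, -1.39 in EMG1 and -1.47 in RRP12. In Mino the changes of these 5 ran from -0.09 to 0.17. The adjusted p-values stand with the comparisons between lines.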

How the results depend on the processing

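The named changes that passed the threshold kept their sign under the alternatives run, where a gene tested by every probe set counts by the one with the smallest p. Dim probe sets of RRP12 and NOP16 had changes of up to 0.21 and 0.05 in Rec-1. With only the arrays compared, 0 members and 0 other factors fell in Rec-1 (42 members at an unadjusted p under 0.05), and the Rec-1 change differed from that of SP-49 in 1 member and from that of Mino in 8. With an intensity trend and robust prior, 10 members and 4 other factors fell in SP-49, the Rec-1 change differed from SP-49 in 10 members and from Mino in 36, and that of SP-49 differed from Mino in 1. Array weights gave 3 members and 1 other factor lower in SP-49, averaging each gene's probe sets 2 members, and quantile normalization applied again 1. At least 1.5-fold left 8 members lower on average. Without the second GSI arrays of Rec-1 and SP-49, both of narrow spread, 16 members fell on average, the Rec-1 change differed from SP-49 in 0 and from Mino in 14, and 24 other factors fell in Rec-1. The median change of the members was -0.70 in Rec-1 and -0.29 in SP-49 with the mean of probe sets, -0.75 and -0.30 after quantile normalization, and -0.77 and -0.30 without those 2 arrays. In Mino it was 0.068 with every probe set on its own and 0.071 after median centring. The causes of these shifts were not tested. The share of all genes called under each of these settings is not given here, so these counts cannot be set against it.

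With 1 array left out, the number of members lower was 23 to 38 in Rec-1, 0 to 1 in SP-49 and 12 to 31 on average. The Rec-1 change differed from SP-49 in 0 to 4 members and from Mino in 5 to 28. Other factors lower were 13 to 43 in Rec-1 and 0 to 1 in SP-49. The medians ran from -0.95 to -0.77 in Rec-1, -0.44 to -0.30 in SP-49 and 0.0038 to 0.0451 in Mino. Of the 38 falls in Rec-1, 22 held in all 12 such fits. An array left alone in its group was given the spread of the other groups.

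With the replicate number within each line as a block, 36 members fell in Rec-1, and the Rec-1 change differed from SP-49 in 1 and from Mino in 10. Over all genes, the replicate differences of Mock and of GSI arrays correlated with r of 0.09 in Rec-1, 0.05 in Mino and -0.01 in SP-49 (2 pairs a line). Whether same-numbered arrays were handled together is not given in the sources used here, and these values cannot settle it. With 2 arrays a group, small changes could not be told from 0.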

Other observations

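Several members have further probe sets, 42 in all for 24 members, of which 14 had a mean under the median of all values. In Rec-1, 14 of the 42 fell and 0 rose when every probe set was tested, and 34 had a negative change. The shares of all probe sets in that test are not given here, so these counts cannot be set against them. Where the further probe set was well above the median the size could differ from that given in the report. WDR74 had -1.13 (adjusted p = 0.0048) by its second probe set against -0.44 by the first, NOLC1 had -1.52 and -1.24 against -0.93, NOP16 had -1.68 against -1.44, and PNO1 had -0.72 (adjusted p = 0.0574) against -1.23. TSR1 had -1.14 and -0.17 in Rec-1 by probe sets with means of 5.49 and 4.88, against -1.46. All 4 further probe sets of RRP12 were dim (means of 1.75 to 2.84) and had changes from -0.25 to 0.21, so its fall rests on 1 probe set.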
